A study of Drosophila melanogaster with 2 samples.

Results

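The 249 peaks described here were the intergenic peaks of tup (tailup) away from promoters, and they made up 11.1% of the 2241 peaks in the authors' optimal list. A peak was a member when its summit lay in no annotated gene and more than 500 bp from every annotated transcript start. The members were therefore chosen on position and on the pooled signal that put a peak into the optimal list. The chromatin came from whole embryos aged 0 to 24 h, with both sexes pooled, of a transgenic line that carried tup fused at its C-terminus to GFP, and it was precipitated with anti-GFP antibody. DNA was sonicated to 200 to 800 bp. Both biological replicates belonged to that single group, and a control used in the authors' peak calling was not analysed here. Whole embryos mix all embryonic cell types, so a peak could not be assigned to a tissue, and all chromatin was from 1 tagged line.

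Tup is the fly member of the Islet family of LIM-homeodomain transcription factors. In embryos it is known for roles in the amnioserosa, the heart and dorsal muscle, and in motor neurons and interneurons. Intergenic DNA holds many of the enhancers of developmental genes, which can act on a gene other than the nearest one, so a neighbouring gene is named as a landmark and not as a target.

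The 5389 non-passing candidates were pooled candidates that met the same position rule and overlapped no peak of the optimal list. The 1237 promoter peaks and 703 intronic peaks were the optimal peaks within 500 bp of a start and, beyond that distance, in introns.

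The bases from 50 before to 50 after the summit are printed here for 8 of the strongest members, for the strongest with TAGTAA or CAAGTG, and for the strongest member near tup. The letters are those of the + strand of the RefSeq copy of the fly release 6 genome (dm6 coordinates). Capitals mark, on either strand, CAAGTG, a sequence bound by NK-type homeodomain factors such as Tinman, and 5 sequences of 6 bases that were at a higher share in members than in non-passing candidates. These are AAGTAA and its shifted forms, GAAGTA beginning a base earlier and AGTAAA a base later, together with TAGTAA and the unrelated TCAACA. Peaks holding CAAGTG were added to the display after their values were seen.
Peak between CR45641 and CR45643, chr3R:16222441-16222541: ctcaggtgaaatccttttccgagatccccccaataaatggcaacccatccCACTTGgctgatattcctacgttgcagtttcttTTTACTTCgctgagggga
Peak between CG3149 and CR42794, chrX:5696471-5696571: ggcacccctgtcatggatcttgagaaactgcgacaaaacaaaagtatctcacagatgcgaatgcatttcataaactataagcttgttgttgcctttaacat
Peak between C15 and sp3, chr3R:21520326-21520426: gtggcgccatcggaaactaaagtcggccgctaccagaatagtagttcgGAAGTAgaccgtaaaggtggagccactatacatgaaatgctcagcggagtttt
Peak between CG17896 and CG17778, chrX:493969-494069: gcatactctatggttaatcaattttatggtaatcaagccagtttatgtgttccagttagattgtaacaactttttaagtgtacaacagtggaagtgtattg
Peak between CR44853 and CR44854, chr2L:14556972-14557072: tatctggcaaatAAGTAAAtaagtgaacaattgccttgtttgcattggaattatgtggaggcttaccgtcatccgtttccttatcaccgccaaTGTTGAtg
Peak between slp1 and slp2, chr2L:3832460-3832560: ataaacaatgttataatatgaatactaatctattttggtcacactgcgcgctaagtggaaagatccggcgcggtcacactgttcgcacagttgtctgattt
Peak beside jp, chr2L:9567455-9567555: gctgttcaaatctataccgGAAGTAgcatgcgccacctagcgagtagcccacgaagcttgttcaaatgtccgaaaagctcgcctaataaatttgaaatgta
Peak between CR44603 and CR45695, chr2L:1632798-1632898: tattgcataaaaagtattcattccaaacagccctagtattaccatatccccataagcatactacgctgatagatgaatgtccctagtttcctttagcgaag
Peak between CR45737 and sty, chr3L:3395017-3395117: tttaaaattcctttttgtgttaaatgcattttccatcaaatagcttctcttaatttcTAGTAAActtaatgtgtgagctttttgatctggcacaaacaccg
Peak beside hng3, chr3L:762476-762576: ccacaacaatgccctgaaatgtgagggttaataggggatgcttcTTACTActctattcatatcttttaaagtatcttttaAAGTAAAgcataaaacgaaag
Peak between CR45303 and CR45693, chr2L:14505162-14505262: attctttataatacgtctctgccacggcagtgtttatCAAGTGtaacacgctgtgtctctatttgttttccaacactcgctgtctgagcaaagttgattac
Peak upstream of tup, chr2L:18890207-18890307: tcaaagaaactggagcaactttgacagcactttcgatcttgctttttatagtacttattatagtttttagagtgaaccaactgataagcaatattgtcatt

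Of the sequences shown, the strongest member held both CAAGTG and 3 of the others in 1 overlapping run, all on the - strand. The peaks that held none of the marked sequences included the one between slp1 and slp2 and the strongest upstream of tup.

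The height of a peak is the peak caller's signal value, which was used to describe and order peaks within a list. Members had a median signal of 96.1 (interquartile range 78.9 to 135, range 68.7 to 559), beside 109 in promoter peaks and 95.9 in intronic peaks. The non-passing candidates reached at most 68.5, because signal set the optimal list. Of the members, 103 (41.4%) lay above the median of the optimal list, 102, and 5 were among its first 100. The lowest members had signals of 68.74, 68.73 and 68.70. They lay 564 bp from the start of tRNA:Leu-CAA-2-2, 1144 bp from that of CR45588 and 2519 bp from that of CG34260, beside kni. The strongest candidates just outside, at 68.52, 68.45 and 68.28, lay nearest to D, RabGGTa and ems.

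The strongest member (3R 16222377 to 16222629) had a signal of 559.3 in the pooled list, 300.2 in replicate 1 and 262.6 in replicate 2. It lay 904 bp from the start of the long non-coding RNA (lncRNA) CR45643. A second member, 3R 16224452 to 16224586, lay between CR45643 and tara, which encodes a nuclear cofactor, with a pooled signal of 268.0 and replicate signals of 167.5 and 104.6. The third, beginning at 16221653, was weaker at 79.08, with 63.79 and 12.26 in the replicates. All of these peaks had CR45643 as the nearest start.

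Some of the strongest members lay beside Polycomb genes, which encode proteins that keep developmental genes silent. The member at 2R 13035210 to 13035471, in a gap of 36783 bp between Su(z)2 and CG13323, had a pooled signal of 497.9 and replicate signals of 284.6 and 209.9. A member beside Psc, at 2R 12958086 to 12958469, had 258.3 in the pooled list, 167.2 in replicate 1 and 83.56 in replicate 2. Between ph-d and ph-p, neighbouring genes for the same Polycomb subunit type, a member had 236.4 in the pooled list, 170.7 in replicate 1 and 64.14 in replicate 2. With a weaker member at 2R 12959200, at 114.3 in the pooled list and at rank 927 of the 2241, 4 members (1.61%) were flanked by a gene of a 14-gene Polycomb list, beside 15 of the non-passing candidates (0.278%). This list was chosen after the strongest members had been seen, so neither its count nor its signals support anything about the list.

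Other strong members lay beside genes of varied roles. The member between slp1 and slp2, fork head genes of segmentation, had a pooled signal of 278.5, with 150.3 and 130.0 in replicates 1 and 2. The member between C15, a homeobox gene of the amnioserosa, and sp3 had 332.2, with 178.4 in replicate 1 and 145.7 in replicate 2. It was 552 bp from the start of sp3. The member between blw, an ATP synthase subunit gene, and CycB, a mitotic cyclin gene, had 355.5 and was higher in replicate 2 (198.8) than in replicate 1 (155.6). The member beside jp, a junctophilin gene, had 276.4, with 180.0 in replicate 1 and 83.52 in replicate 2. A member in a gap of only 437 bp between Sol1 and Cyp9f2 had 239.4, and one in a gap of 4854 bp between the gap junction gene Inx2 and cm had 239.3. Across the 20 strongest members, replicate 2 was above replicate 1 for the peaks near CycB and CR44603 alone.

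**Figure D1:**
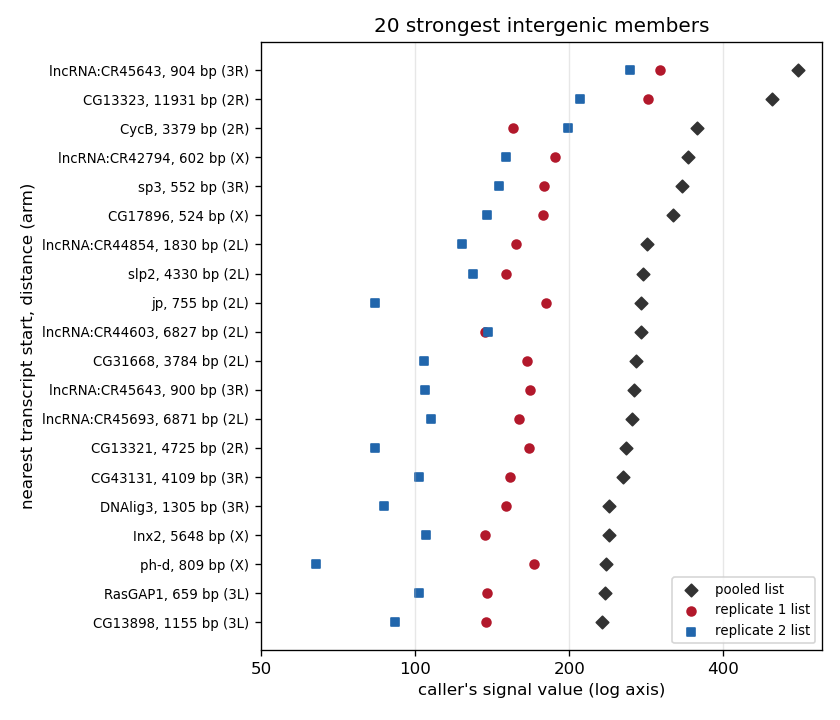
Signal values of the 20 strongest members in the pooled list (diamonds), the replicate 1 list (circles) and the replicate 2 list (squares), on a log axis, labelled by nearest transcript start, distance and arm. The pooled values run between 231.9 and 559.3, and the replicate 2 point lies to the right of the replicate 1 point for the peaks near CycB and CR44603.

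A member was taken to recur in a replicate when that replicate's candidate list had a summit within 100 bp. By this rule 241 members (96.8%) had a candidate in replicate 1 and 236 (94.8%) in replicate 2. Both replicates held 228 of them (91.6%, 95% Wilson interval 87.5 to 94.4), and none lacked a candidate in both. Wilson intervals and the p-values over peaks cover counting error alone, because neighbouring peaks and both replicates come from the same line. The replicate lists held 30000 candidates each, so a stricter rule asked for a place among a replicate's own 2241 strongest. It was met by 200 members (80.3%) in replicate 1, by 163 (65.5%) in replicate 2 and by 128 (51.4%) in both. In promoter peaks the share in both was 57.7%, and in intronic peaks it was 54.5%. No test was run on this agreement, since pooled signal chose the peaks.

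Members listed in a replicate had a median signal of 61.4 in replicate 1, where all candidates had 20.8, and of 37.4 in replicate 2, where all candidates had 11.0. The lists differ in scale, and the source of a value above that of the other replicate was not tested. Over the 228 members in both, replicate 1 over replicate 2 had a median of 1.63, with a range of 0.340 to 10.8, and replicate 2 was higher in 31 members. The orders of the replicate signals had a Spearman correlation of 0.42, given as a description since both lists cover the same chosen peaks. Read totals are not part of the lists, and depth was unknown.

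The 8 members with no candidate summit within 100 bp in replicate 1 had pooled signals of 72.9 to 118, and the 13 with none in replicate 2 had 69.2 to 121. Most of them overlapped a candidate whose summit lay farther off: 1 member overlapped no candidate of replicate 1 and 5 overlapped none of replicate 2. Those without overlap included a member 1470 bp from a start of lola, a BTB zinc finger gene (88.77 pooled and 41.45 in replicate 2), and a member 1034 bp from a start of Dad, an inhibitory Smad gene (77.41 pooled and 54.84 in replicate 1). A member near CG14621 on X was at 199.2 in replicate 1, where it ranked 95, but at 97.31 in the pooled list. It overlapped no candidate of replicate 2, and its summit lay in an annotated transposable element.

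On 3L lay 85 members (34.1%), and that arm held 21.1% of all optimal peaks and 27.6% of non-passing intergenic candidates. On 2L lay 69 (27.7%), against 19.9% of optimal peaks and 23.4% of non-passing candidates. On X lay 21 (8.43%), against 16.7% and 9.15% in the same lists. Members were 18.0% of the optimal peaks of 3L, 5.61% of those of X and 3 of the 7 on chromosome 4. These were the peaks near zfh2 (218.4), a homeodomain and zinc finger gene, near CR43437 (123.7), and between fuss and the eye gene toy (100.7, with no replicate 1 summit within 100 bp). No test was made of the arm shares.

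**Figure D2:**
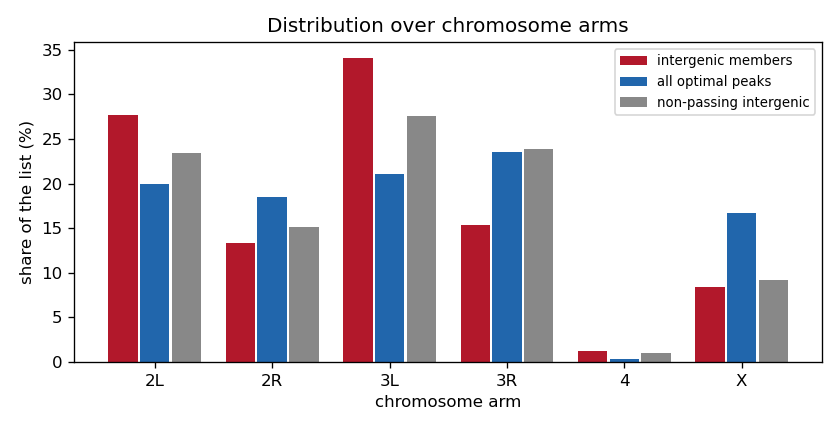
Share of each list on each chromosome arm, in percent: intergenic members (red), all 2241 optimal peaks (blue) and 5389 non-passing intergenic candidates (grey). On 3L the members' bar (34.1%) is above both others and on X it is 8.43%, beside 16.7% for all optimal peaks.

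Most members stood alone. With summits within 10 kb of each other linked, the 249 members formed 200 runs, of which 172 held 1 member, 15 held 2, 8 held 3, 3 held 4, 1 held 5 and 1 held 6. The 13 runs of 3 or more took in 47 members (18.9%). Another optimal summit of any class lay within 10 kb of 112 members (45.0%), and another member lay within 10 kb of 77 (30.9%). The 27 starts that were nearest to at least 2 members included Doc2 (3), RasGAP1 (3), foxo (2) and aop (2). Overlapping peaks were counted as separate members, as at RasGAP1 (3L 9855752 to 9856135 and 9855953 to 9856336) and CR45411 (3L 724448 to 724831 and 724656 to 725039). Of the RasGAP1 members, 1 had a replicate 2 summit within 100 bp.

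The run of 6 was upstream of tup itself (2L 18859507 to 18881261, - strand), the gene whose product was precipitated. Its summits lay 3724, 8996, 11831, 18244, 25488 and 26298 bp upstream of the start of tup. The pooled signals in that order were 113.0, 227.9, 76.55, 169.3, 109.6 and 71.26. Replicate 1 gave 75.17, 140.1, 46.86, 104.6, 90.54 and 43.63, and replicate 2 gave 35.35, 83.78, 20.98, 62.63, 15.73 and 15.64. All of them had a candidate in both replicates, and the summit at 8996 bp was the highest in each list. These were all of the members within 50 kb of tup. The first 3 lay in the gap between tup and CR44737, and lncRNA starts were nearer than that of tup for 5 of them. The peak nearest to tup had 66.3% of the bases around its summit soft-masked as repeats, and the strongest had 0%. The line is transgenic for tup, and DNA copy number at this locus was not tested, because the control was not analysed.

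**Figure D3:**
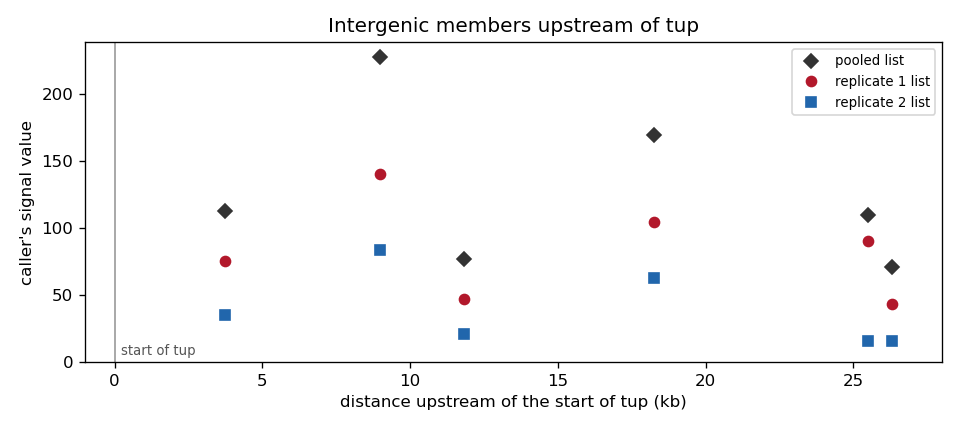
Signal values (y axis) of the 6 members upstream of tup against their distance from its start in kb (x axis), in the pooled list (diamonds), replicate 1 (circles) and replicate 2 (squares). The peak at 8996 bp is the highest in all lists, with 227.9 in the pooled list, and the farthest has 71.26.

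The run of 5 lay on 2L between CR44603 and chinmo, which encodes a BTB zinc finger protein of neuronal identity. Its pooled signals were 276.0, 72.65, 219.5, 190.6 and 115.9. The peak nearest to chinmo (2L 1648621, 115.9) was higher in replicate 2 (67.92) than in replicate 1 (48.52). A run of 4 lay from the side of robo2, which encodes a receptor of the guidance cue Slit, to past CG43401, at 107.3, 82.87, 78.90 and 177.7. The third peak had no replicate 2 summit within 100 bp but overlapped a candidate. Another run of 4 lay around Rh5, an opsin gene, from Hacd1 to CR44588, at 97.37, 135.5, 120.5 and 80.76, and the third peak overlapped no candidate of replicate 2. The last run of 4, at CG7560 on 3L (89.23, 115.7, 78.20 and 114.9), had no replicate 1 summit within 100 bp of the third peak, which overlapped a candidate.

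By 1 Mb windows, the ones from 0 to 1 and from 11 to 12 Mb of 3L held the most members, 13 each of 39 and 31 optimal peaks. The window from 14 to 15 Mb of 2L held 10 members of 16 optimal peaks. The 3L window from 0 Mb included peaks near dpr20 and CG13898, and the 2L window from 14 Mb included peaks near ppk and lncRNA genes.

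Members of the gene lists are given by how often a listed gene flanked the peak, beside the same share of the non-passing candidates. The LIM-homeodomain list (6 matched genes) flanked 4 members (1.61%, against 0.445%), of which 3 were beside tup and the other was beside Awh, another LIM-homeodomain gene (69.86, with no replicate 2 summit within 100 bp). The heart and dorsal mesoderm list (16 genes) flanked 4 (1.61%, against 1.06%). Beside the T-box gene Doc2 the peaks had pooled signals of 115.9, 99.98 and 71.87, with replicate 1 at 50.56, 57.27 and 49.39 and replicate 2 at 58.02, 42.73 and 19.03. The fourth was beside the T-box gene mid (81.20). The neuronal recognition list (60 genes) flanked 7 (2.81%, against 1.71%). They were beside unc-5, a Netrin receptor gene (214.8), robo2, dpr17, DIP-delta and dpr20, the last a relative of the immunoglobulin genes of synapse choice (73.53).

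The remaining lists were at 3 members or fewer. The amnioserosa and dorsal ectoderm list (13 genes) flanked 1 (0.402%, against 0.334%), the peak beside C15. The neural transcription factor list (23 genes) flanked 2 (0.803%, against 2.17%), beside inv (69.06) and vvl (81.02), both homeobox genes. Ribosomal protein genes (92) flanked 3 (1.20%, against 0.482%), and the Notch and E(spl) list (14 genes) flanked 2 (0.803%, against 0.241%), beside E(spl)malpha-BFM (141.1) and Ser (90.77). Counted by nearest start instead, the LIM-homeodomain list had 1 member (0.402%, against 0.167%) and the heart list 3 (1.20%, against 0.353%). The neuronal recognition list had 4 (1.61%, against 0.649%) and the neural transcription factor list 2 (0.803%, against 1.13%). The Notch and E(spl) list had 1 (0.402%, against 0.167%). The amnioserosa list and ribosomal protein genes had 0, against 0.148% and 0.260%. Counts this small were not tested.

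Distance from a start was part of the position rule, which both lists met, and members and non-passing candidates differed in it only in some settings. With the limit at 500 bp the median distance was 2730 bp in members (interquartile range 1239 to 4990) and 3526 bp in non-passing candidates (1672 to 7251), a difference of -796 bp (two-sided permutation test of the medians, 100000 resamples, p = 0.0129, adjusted p = 0.0215 over 5 tests). The gaps between genes that held members had a median of 9599 bp, against 12629 bp (difference -3030 bp, permutation test, adjusted p = 0.00957). The excess was near the limit set by the position rule: 48 members (19.3%) lay between 500 and 1000 bp, against 11.9% of non-passing candidates, and 34 (13.7%) lay between 5 and 10 kb, against 22.8%. With the limit at 1000 bp the distance difference was -417 bp (permutation test, adjusted p = 0.418) and the gap difference was -2158 bp (adjusted p = 0.210). With protein-coding genes alone both adjusted p-values of the permutation tests were 0.0942, and with replicate 2 alone (without replicate 1) the distance difference was -712 bp at an adjusted p of 0.0617. Among the 103 members above the median signal it was -1507 bp and the gap difference was -4609 bp (permutation tests, adjusted p = 0.0121 for each).

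The members closest to the limit were 507 bp from CR42657, 519 bp from CR44737 and 524 bp from CG17896. Optimal peaks outside genes that just missed the rule lay 500, 495 and 494 bp from starts, the last 2 at by and Mkp3. The farthest member lay 33829 bp from a start, beside vvl, and the next lay 31858 bp from CG43245, with a pooled signal of 177.2. By distance class, the median pooled signal was 110 for members at 500 to 1000 bp, 88.8 at 1 to 2 kb, 96.6 at 2 to 5 kb, 97.6 at 5 to 10 kb and 85.4 beyond 10 kb. Across members, signal and distance had a Spearman correlation of -0.096, which is weak.

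**Figure D4:**
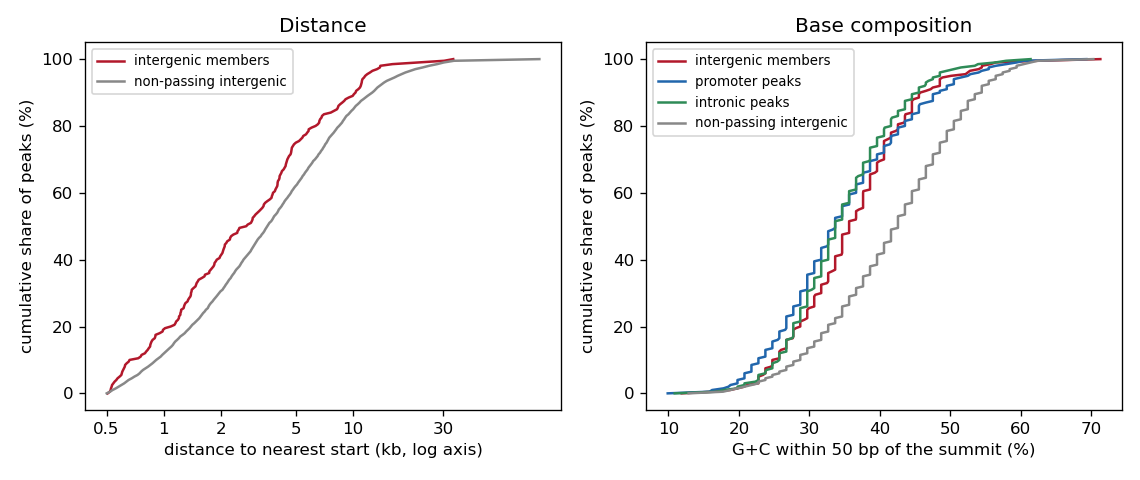
Cumulative share of peaks in percent (y axes) by distance to the nearest start (left, kb on a log axis) and by G+C content within 50 bp of the summit (right, percent), for members (red), promoter peaks (blue), intronic peaks (green) and non-passing candidates (grey). The members' distance curve lies left of the non-passing curve (medians 2730 and 3526 bp), and their G+C curve lies with the other optimal peaks and left of the non-passing curve (medians 35.6% and 42.6%).

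What kind of gene was nearest, and how the genes faced, did not pass a test. The nearest start belonged to a protein-coding gene for 159 members (63.9%, against 65.5% of non-passing candidates), to a lncRNA for 82 (32.9%, against 30.5%) and to a tRNA for 6 (2.41%, against 1.67%). Both flanking starts faced the gap for 62 (24.9%, against 25.1%), 1 did for 136 (54.6%, against 50.5%) and none did for 51 (20.5%, against 24.4%). The smallest adjusted p among these 7 Fisher's exact tests was 0.327. Summits in transposable elements were 2 in members (0.803%), near ed and CG14621, 69 in non-passing candidates (1.28%), 1 in promoter peaks and 0 in intronic peaks. Over 50% soft-masked bases were found at 21 members (8.43%), 7.13% of non-passing candidates, 11.3% of promoter peaks and 7.11% of intronic peaks. None of these 6 repeat tests passed (Fisher's exact test, adjusted p 0.224 or above), and no 20-base stretch was shared between members.

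The bases around members were poorer in G and C than those of the non-passing candidates. Median G+C was 35.6% in members (29.7 to 40.6) and 42.6% in non-passing candidates (34.7 to 48.5), a difference of -6.93 points (permutation test, p = 1e-05, which is the lowest possible with 100000 resamples, and adjusted p = 5.00e-05). Members did not pass a test against promoter peaks (33.7%, difference 1.98, adjusted p = 0.126) or intronic peaks (33.7%, difference 1.98, adjusted p = 0.0720 in the permutation test). With replicate 1 alone (without replicate 2) both of these passed, at differences of 3.96 (adjusted p = 0.001) and 1.98 (adjusted p = 0.0455, permutation tests).

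The bases within 50 bp of each summit were searched on both strands for 16 motifs. Against promoter peaks 1 of the 16 motifs passed (6.25%), with 3 at an unadjusted p under 0.05. This was CAAGTG, the NK-type sequence, at 29 of 249 members (11.6%) and 53 of 1237 promoter peaks (4.28%), an odds ratio of 2.94 (two-sided Fisher's exact test, adjusted p = 0.00114 over 48 tests). Fewer intronic peaks (44, 6.26%) and non-passing candidates (405, 7.52%) than members held it by share, but those differences did not pass (odds ratio 1.97 with an adjusted p of 0.132, and 1.62 with 0.166, by Fisher's exact test). The difference from promoter peaks was lost in a window of 25 bp each side (odds ratio 2.14, adjusted p = 1.00) and with replicate 1 alone (1.98, adjusted p = 0.237, Fisher's exact test). With replicate 2 alone it passed also against non-passing candidates (1.90, adjusted p = 0.0300) and intronic peaks (2.26, adjusted p = 0.0261, Fisher's exact test). Within classes of G+C content, the odds ratio against non-passing candidates was 2.00 (Cochran-Mantel-Haenszel test over peaks, n = 249 members and n = 5389 candidates, adjusted p = 0.0164). CAAGTG also matches the general E-box form CANNTG (N being any base), another of the 16 motifs. CANNTG was at 95 members (38.2%) and 438 promoter peaks (35.4%), an odds ratio of 1.13 that did not pass Fisher's exact test.

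The 29 members with CAAGTG had signals of 72.8 to 559 with a median of 103, and 27 of them had a candidate in both replicates. Members without CAAGTG had a median of 95.4. The 29 with it included the strongest member of all, 2 members of the chinmo run (190.6 and 115.9) and 3 of the CG7560 run (114.9, 89.23 and 78.20). Also among the 29 were a member beside caup, an Iroquois homeobox gene (94.11), and a member beside shg, the E-cadherin gene (100.9). The peak 11831 bp upstream of tup (76.55) held CAAGTG as well. CAAGTG lay a median of 24.5 bases from the summit in members, 21.5 in promoter peaks, 28.5 in intronic peaks and 22.5 in non-passing candidates. Its longer form TCAAGTG was at 12 members (4.82%), 1.05% of promoter peaks, 1.56% of intronic peaks and 2.51% of non-passing candidates, a description with no test.

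Against the non-passing candidates 0 of the 16 motifs passed (0%, Fisher's exact test, with 2 at an unadjusted p under 0.05). Against intronic peaks 0 passed as well (2 at an unadjusted p under 0.05). The homeodomain core TAATTA was at 19 members (7.63%), 124 of 1237 promoter peaks, 8.53% of intronic peaks and 8.22% of non-passing candidates, with odds ratios of 0.741, 0.885 and 0.922. TAATTG was at 26 members (10.4%) and 10.6% of non-passing candidates, and TAATGG was at 12 (4.82%) and 5.47%. At least 1 of these 3 was at 55 members (22.1%) and at 22.0% of non-passing candidates. Tup is a homeodomain protein, and whether it bound at these matches was not tested. TATCGATA, listed as the DRE and BEAF-32 sequence, was at 0 members (a limit of 3 counts in 249, or 1.20%) and at 32 promoter peaks (2.59%, Fisher's exact test, adjusted p = 0.132). It was also at 0 of 703 intronic peaks and at 0.111% of non-passing candidates. The fork head sequence TGTTTAC was at 6 members (2.41%) and 6.26% of intronic peaks (Fisher's exact test, adjusted p = 0.166).

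**Figure D5:**
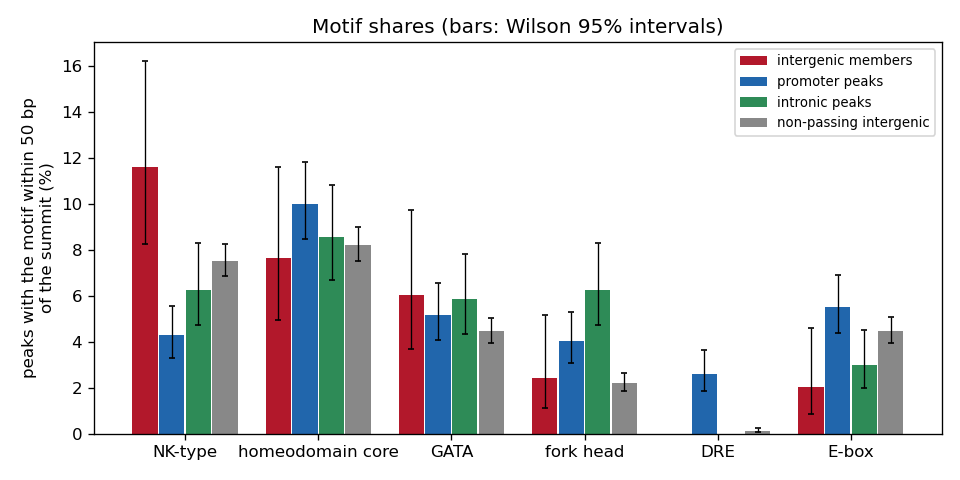
Share of peaks in percent (y axis) with each of 6 motifs within 50 bp of the summit, in members (red), promoter peaks (blue), intronic peaks (green) and non-passing candidates (grey), with 95% Wilson intervals, none being drawn where the count is 0. The NK-type motif is at 11.6% of members and 4.28% of promoter peaks, and the homeodomain core is at 7.63% of members and 8.22% of non-passing candidates. The E-box bars are of CAGCTG alone.

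All sequences of 6 bases, each joined with its reverse complement, were compared with the non-passing candidates. Of these, 5 were at a higher share in members (0.240% of those tested) and 0 at a lower share (0%), by Fisher's exact test adjusted over all of them. At an unadjusted p under 0.05 there were 150 higher and 124 lower. AAGTAA was at 42 members (16.9%) and 7.27% of non-passing candidates, an odds ratio of 2.59 (Fisher's exact test, adjusted p = 0.00220). GAAGTA was at 22 (8.84%) and 2.67%, an odds ratio of 3.53 (Fisher's exact test, adjusted p = 0.00309). TAGTAA was at 26 (10.4%) and 3.79%, TCAACA at 34 (13.7%) and 5.75%, and AGTAAA at 37 (14.9%) and 6.53%, each with an adjusted p of 0.00329. All but TCAACA overlap one another in letters. AAGTAA and AGTAAA occurred together in 21 members and GAAGTA and AAGTAA in 14, so these are not separate counts.

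At least 1 of the 5 was at 96 members (38.6%) and 1041 non-passing candidates (19.3%), a description since the 5 were chosen on this comparison. In promoter peaks AAGTAA was at 12.8%, GAAGTA at 4.37%, TAGTAA at 7.44%, TCAACA at 7.76% and AGTAAA at 10.9%. In intronic peaks the shares were 9.96%, 4.27%, 6.83%, 8.96% and 11.4% in the same order. For each sequence, the promoter and intronic shares lay between those in members and non-passing candidates. The 6-base sequences were tested against non-passing candidates only, and a difference of members from promoter or intronic peaks was not tested. The count of 5 did not hold under other choices. With 5 classes of G+C there were 3, of which GAAGTA and TCAACA were among the 5, and among the 103 members above the median signal there were 0. In those 103 the odds ratios were 2.52 for AAGTAA, 3.07 for GAAGTA, 2.43 for TAGTAA, 2.79 for TCAACA and 3.03 for AGTAAA. With replicate 1 alone they were 1.84, 2.44, 1.92, 1.71 and 1.76 in the same order. With replicate 2 alone (without replicate 1) there were 35, of which 4 were among the 5, and with replicate 1 alone (without replicate 2) there were 0. G+C differed between members and non-passing candidates, as given above, and its part in the excess was not tested beyond these classes. The lowest p at a lower share was CGGGCA, at 0 members (again a limit of 1.20% from 3 counts) and 181 non-passing candidates (3.36%). CCCGGC was also at 0 members and at 3.12%, while GCCAAA was at 5.62% of members and 11.8%. CCACTC was at 1.20% and 5.29%, and GCGGCA at 1.61% and 5.85%. None of these passed (Fisher's exact test, adjusted p 0.104 or above).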

How the data were processed

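The labels describe anti-GFP ChIP-seq of 2 biological replicates, with separate biosample records. The authors deposited dm6 peak lists: candidates of each replicate, pooled candidates (30000 each) and an optimal list thresholded by irreproducible discovery rate (IDR). The IDR threshold, aligner and peak caller, with versions, were not given in the sources used here; each peak's signal value is the authors', as deposited, and so are the summit offset and the -log10 q value, which was not used to rank peaks. Scales differ between lists, and depth is unknown. The 2241 optimal peaks were the strongest of the pooled list. The dm3 lists were not used.

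Genes came from Ensembl release 115 (BDGP6.54). 5889 transposable elements were left out, which left 18277 genes. Members and lists were chosen with earlier results of these data known. The genes named were the 20 strongest members, all within 50 kb of tup, the 5 longest runs, the peaks nearest each limit, the farthest members, and listed genes. Others, such as those missing from a replicate and those with CAAGTG, were chosen after their values were seen. Shares were compared by two-sided Fisher's exact tests and medians by permutation tests with 100000 resamples, and shares within 5 classes of G+C by Cochran-Mantel-Haenszel tests, with Benjamini-Hochberg adjustment at 0.05 within each family. Peaks are not replicates. Replicate-alone repeats used the 2241 strongest candidates of 1 replicate. The scripts were checked on simulated data. Python 3.11.15, numpy 2.4.6, scipy 1.17.1 and pandas 2.3.3 were used.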

Additional observations from a re-analysis of the deposited data

How the results depend on the processing

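Of 184 alternative values, 126 kept their direction and side of the threshold, or moved little, 21 no longer passed, 8 newly passed, 6 turned in direction and 23 moved. The G+C difference from non-passing candidates stayed between -7.92 and -4.48 points and passed under each of its alternatives. Members above the median signal were 103. Support in replicate 1 was 90.0%, 99.6% and 99.6% with summits within 50 bp, within 200 bp and any overlap, and in replicate 2 it was 81.5%, 98.0% and 98.0%. The share among the strongest of replicate 2 was 59.0% within 50 bp.

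Motifs past the threshold against non-passing candidates were 1 with G+C classes, and 0 to 1 with 1 replicate left out. Against promoter peaks they were 0 in a window of 25 bp each side, 3 in one of 100 bp and 0 to 2 with 1 replicate left out. Against intronic peaks they were 1 at 100 bp and 0 to 1 with 1 replicate left out. The odds ratio of TAATTA against non-passing candidates was 1.05 with the start limit at 1000 bp, where it was 0.922 at 500 bp. The 6-base sequences past the threshold were 3 with G+C classes, 0 above the median signal and 0 to 35 with 1 replicate left out.

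The G+C difference from promoter peaks passed above the median signal (2.97), in the 100 bp window (1.99) and with replicate 2 left out (3.96, but 0 with replicate 1 left out), and that from intronic peaks above the median signal (2.48) and with replicate 2 left out (1.98, also the difference with replicate 1 left out, which did not pass). The distance difference was -417 bp at the 1000 bp limit, -919 bp with protein-coding genes alone, -1507 bp above the median signal, and -712 to -630 bp with 1 replicate left out. The gap difference was -2158 bp at 1000 bp, -2548 bp with protein-coding genes alone and -4609 bp above the median signal, and both differences passed above the median.

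The odds ratio of soft-masked bases against intronic peaks was 0.838 to 1.33 with 1 replicate left out. Both starts facing the gap had 1.06 above the median signal and 1.03 to 1.10 with 1 replicate left out, and 1 start facing it had 0.999 above the median signal. The share of members with another optimal summit nearby was 35.3% at 5 kb, 61.0% at 20 kb, and 49.6% to 53.9% with 1 replicate left out. Transposable elements against intronic peaks gave no finite odds ratio, because 0 intronic summits lay in one. The cause of these changes was not tested. No paired analysis was possible because both replicates belong to 1 group.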
